A study of Homo sapiens with 8 samples.

Results

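The genes described here are the 3 human eIF4A paralogs EIF4A1, EIF4A2 and EIF4A3 and the eIF4A inhibitor PDCD4. They were found by symbol among the 60651 genes of the deposited table, and all 4 were present as 1 row each. Ribosome footprints were sequenced from IMR32, an established human neuroblastoma line with amplified MYCN, labelled as wild type and as neuroblasts. Cells of 4 libraries had received CR31B, a silvestrol analog, for 6 h, and cells of the other 4 had received the solvent DMSO (0.1%). All 8 cultures were given cycloheximide, which arrests elongating ribosomes, before harvest. The CR31B dose is not given in the sources used here, and all libraries came from 1 cell line. The series title places the experiment in a study of the translation controlled by eIF4A in MYCN-driven neuroblastoma.

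eIF4A is an RNA helicase of the DEAD-box family. As a subunit of the cap-binding complex eIF4F, together with the cap-binding protein eIF4E and the scaffold eIF4G, it unwinds the leader of an mRNA so that the small ribosomal subunit can load and scan. EIF4A1 and EIF4A2 encode the closely related cytoplasmic forms, while EIF4A3 encodes a nuclear paralog that clamps onto spliced RNA as a core subunit of the exon junction complex. PDCD4 is a tumour suppressor protein whose MA3 domains bind eIF4A and compete with eIF4G and RNA. Rocaglates, the compound class of silvestrol, clamp eIF4A onto purine-rich RNA instead of simply blocking its enzyme activity.

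How far a footprint can be assigned to 1 paralog depends on their coding sequences, so the stretch around the codons of the DEAD motif, a hallmark of these helicases, is shown first. Bases in capitals differ from EIF4A1, and the sequences are read from GENCODE release 29 transcripts, 5′ to 3′.
EIF4A1: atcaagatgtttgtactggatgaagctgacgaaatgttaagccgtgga
EIF4A2: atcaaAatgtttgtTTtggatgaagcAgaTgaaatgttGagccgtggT
EIF4A3: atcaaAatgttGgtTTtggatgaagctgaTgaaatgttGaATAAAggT
Each stretch has 48 bases, at positions 526 to 573 of the EIF4A1 coding sequence, 529 to 576 of that of EIF4A2 and 541 to 588 of that of EIF4A3, counted from the first base of the start codon. It lies in exon 6 of EIF4A1 and EIF4A2 and spans exons 6 and 7 of EIF4A3. EIF4A2 differed from EIF4A1 at 7 of the 48 bases and EIF4A3 at 12.

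Over the whole coding sequence, of 1218 bases in EIF4A1, 1221 in EIF4A2 and 1233 in EIF4A3, 76.6% of aligned bases were identical between EIF4A1 and EIF4A2. The identity was 65.3% between EIF4A1 and EIF4A3 and 66.0% between EIF4A2 and EIF4A3. The longest run shared by EIF4A1 and EIF4A2 was 20 bases, shown here because it is shorter than the fragments of 28 to 30 nt that were cut from the gel.
EIF4A1 and EIF4A2: aactggaatgagattgttga
It starts at base 76 of the EIF4A1 coding sequence and at base 79 of that of EIF4A2, in exon 3 of both. No 28-base word of the coding sequence of any of the 4 genes occurred in the coding sequence of another. Within 1 mismatch, 5 of the 1191 words of EIF4A1 (0.420%) matched a word of EIF4A2, and within 2 mismatches 28 did (2.35%). Between EIF4A2 and EIF4A3, 1 word matched within 1 mismatch and 14 within 2, and no word of PDCD4 came closer than 6 mismatches.

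**Figure D1:**
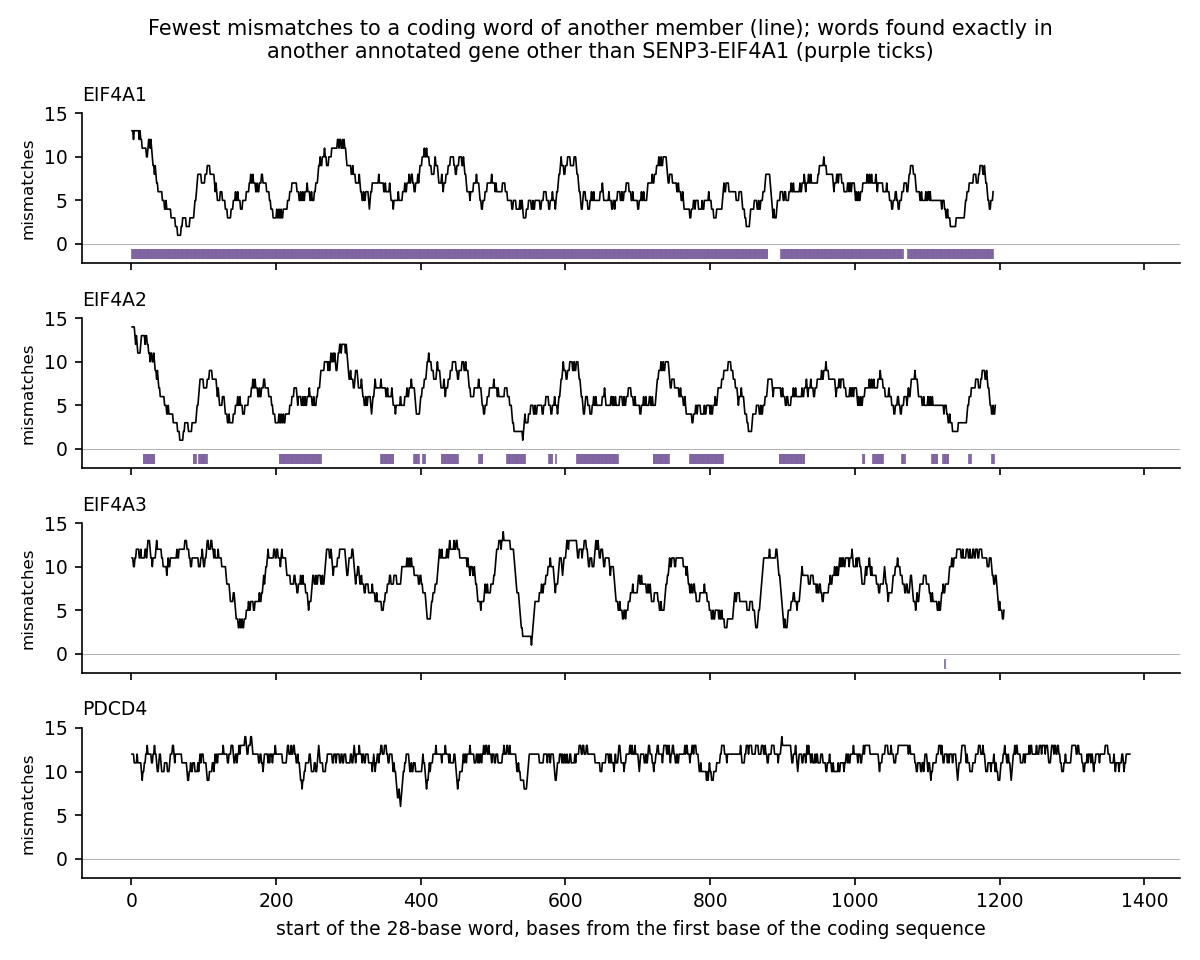
The line gives, for each 28-base word of a coding sequence (x axis, start in bases from the start codon), the fewest mismatches to any coding word of the other 3 genes (y axis), and purple ticks mark words found exactly in another annotated gene other than SENP3-EIF4A1. The line does not reach 0 in any of the 4 genes, while ticks cover 97.9% of the words of EIF4A1, 32.2% of those of EIF4A2, 0.0829% of those of EIF4A3 and none of PDCD4.

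Other genes, rather than the paralogs, hold words of EIF4A1. The gene lies at chr17:7572706-7579005 (GRCh38, plus strand) and overlaps the readthrough gene SENP3-EIF4A1 (chr17:7563287-7578715), which contains all 1191 words. A non-coding gene of the same locus without a symbol, ENSG00000264772.6, holds 93.7% of them, and the processed pseudogene EIF4A1P10 holds 51.6%. In the deposited table these rows were small. SENP3-EIF4A1 reached at most 0.52 TPM (a level scaled for transcript length and to a fixed sum in each library) and ENSG00000264772.6 at most 0.11 TPM, and EIF4A1P10 ran from 3.41 to 10.4 TPM. Together, the pseudogene and readthrough rows came to between 0.218% and 0.493% of the EIF4A1 value in a library, and to at most 0.0971% of EIF4A2 and 0.0150% of EIF4A3. How the counting divided reads among such copies is not given in the sources used here.

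Of 31 gene symbols that share sequence or position with a member, 12 were listed at 0 in all libraries and 19 were above 0 in at least 1. The 12 include the small RNA genes within EIF4A1 (SNORA48, SNORD10, SNORA67) and EIF4A2 (SNORD2, MIR1248, SNORA81, SNORA63, SNORA4), and the microRNA gene MIR4680 in PDCD4. Those above 0 were EIF4A1P1 to EIF4A1P12, EIF4A2P1 to EIF4A2P4, EIF4A3P1, SENP3-EIF4A1 and PDCD4-AS1, which overlaps PDCD4 on the opposite strand and reached at most 0.46 TPM. Of the 31, EIF4A1P10 alone had a mean of at least 1 TPM. Its level did not differ detectably between the groups (log2 change -0.34, SE 0.26, adjusted p in limma of 0.474), and the change ran from -0.51 without DMSO replicate 2 to -0.12 without DMSO replicate 1.

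The libraries carried the markers of the labelled cell type. Of 9 adrenergic neuroblastoma genes, 8 had a mean of at least 1 TPM, with TH, which encodes tyrosine hydroxylase, as the exception at 0.35 to 1.19 TPM. The Schwann marker SOX10, the epithelial markers CDH1 and KRT14, the mesenchymal PRRX1 and the T cell gene CD3E were listed at 0 throughout. COL1A1, a fibroblast collagen, ran from 5.28 to 16.1 TPM. Protein-coding genes took 61.3% of TPM in CR31B replicate 1 and 51.8% to 52.3% in the other CR31B libraries, against 52.0% to 58.4% in DMSO. TPM keeps no record of the number of reads behind a value, so no counting error could be given. In such bulk samples, fewer cells of a type and less RNA per cell cannot be told apart, and without matched mRNA libraries a footprint level mixes the amount of an mRNA with the number of ribosomes on it.

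In DMSO the 4 genes fell into 3 levels. EIF4A1 stood at 2535, 2329, 2580 and 2890 TPM in DMSO replicates 1 to 4, which placed it between rank 13 and rank 22 of 19885 protein-coding genes. EIF4A2 (148, 116, 124 and 135 TPM) and EIF4A3 (135, 123, 119 and 133 TPM) overlapped, at ranks from 635 to 749. PDCD4 was lowest, at 62.1, 43.0, 57.3 and 53.5 TPM. Of the summed footprint level of the 3 paralogs, 90.9% ± 0.730 came from EIF4A1, 4.60% ± 0.450 from EIF4A2 and 4.50% ± 0.331 from EIF4A3 (SD, n = 4). After CR31B, EIF4A2 and EIF4A3 no longer overlapped, and EIF4A1 held ranks 9 to 14.

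**Figure D2:**
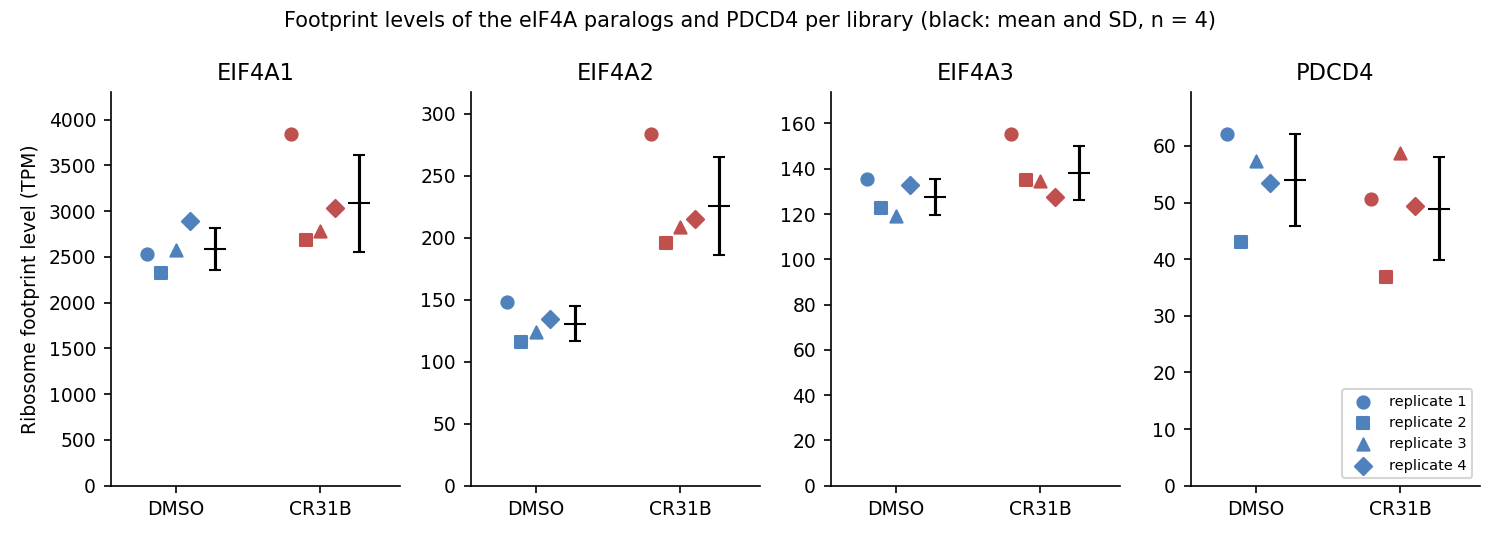
Footprint level in TPM (y axis, from 0, with its own scale in each panel) of the 4 genes in each DMSO and CR31B library; symbols mark the replicate number and black bars the mean and SD (n = 4). The 4 CR31B libraries lie above the 4 DMSO libraries for EIF4A2, whereas the groups overlap for EIF4A1, EIF4A3 and PDCD4.

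The first comparison asked whether footprints on the drug's target helicases and on their inhibitor changed after 6 h. EIF4A2 rose, and the other 3 did not pass the test. This 1 call, among 4 members, compares with 7.46% of the 11778 genes tested that were called in either direction, 3.45% higher and 4.02% lower (limma-adjusted p under 0.05). EIF4A2 (ENSG00000156976.17, chr3:186783205-186789900, GRCh38, plus strand) stood at 284, 196, 209 and 215 TPM in CR31B replicates 1 to 4. Every one of these values was above the highest DMSO library, at 148 TPM. Groups without overlap were seen in 16.2% of all genes tested, 8.07% higher and 8.14% lower in CR31B. The mean was 226 ± 39.4 TPM with the drug against 131 ± 14.2 TPM without (SD, n = 4 each), a ratio of 1.73. The log2 fold change (below, log2 change), on the log2(TPM + 1) scale, came to 0.78 (SE 0.14, 95% confidence interval 0.47 to 1.09, adjusted p in limma of 0.00974), larger than that of 97.7% of genes tested. The exact permutation p was 0.0286, the smallest that 4 against 4 libraries can give.

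The EIF4A2 call held in all 19 alternatives tried, with log2 changes from 0.66, without CR31B replicate 1, to 0.84. Its adjusted p in limma ran from 0.000753, after rescaling over protein-coding genes, to 0.0366, with no filter on low values. Summing EIF4A2 with its pseudogene rows left the log2 change at 0.78. CR31B replicate 1, the library with the largest share of protein-coding RNA, was the highest of the CR31B group for EIF4A1, EIF4A2 and EIF4A3 alike.

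EIF4A1 (ENSG00000161960.16) measured 3841, 2679, 2779 and 3037 TPM across CR31B replicates 1 to 4. Replicates 2 and 3 lay within the DMSO range, which ended at 2890 TPM, and replicates 1 and 4 above it, and each value was above the DMSO library of the same number. The means were 3084 ± 527 and 2584 ± 232 TPM (SD, n = 4 each), with a log2 change of 0.24 (SE 0.15, 95% confidence interval -0.10 to 0.59, adjusted p in limma of 0.378). Without CR31B replicate 1 the log2 change was 0.13. The interval leaves room for a difference of up to 0.59 on the log2 scale.

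EIF4A3 (ENSG00000141543.12, chr17:80135214-80147183, minus strand) measured 155, 135, 135 and 127 TPM across CR31B replicates 1 to 4. These values overlapped those of DMSO, and 3 of 4 were above the DMSO library of the same number. The means were 138 ± 12.0 and 128 ± 7.82 TPM (SD, n = 4 each), with a log2 change of 0.11 (SE 0.11, 95% confidence interval -0.12 to 0.35, adjusted p in limma of 0.579). Without CR31B replicate 1 the log2 change of EIF4A3 was 0.055.

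PDCD4 (ENSG00000150593.18, chr10:110871795-110900006, plus strand) measured 50.6, 36.8, 58.8 and 49.5 TPM across CR31B replicates 1 to 4. It was lower than in the DMSO library of the same number in 3 of 4 pairs, and replicate 2 was the lowest library of both groups. The means were 48.9 ± 9.10 and 54.0 ± 8.12 TPM (SD, n = 4 each), with a log2 change of -0.15 (SE 0.16, 95% confidence interval -0.51 to 0.21, adjusted p in limma of 0.642). Leaving out CR31B replicate 2 gave a log2 change of -0.019, and leaving out DMSO replicate 2 gave -0.25. The direction for PDCD4 stayed below 0 in all 18 alternatives, none of which called it.

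**Figure D3:**
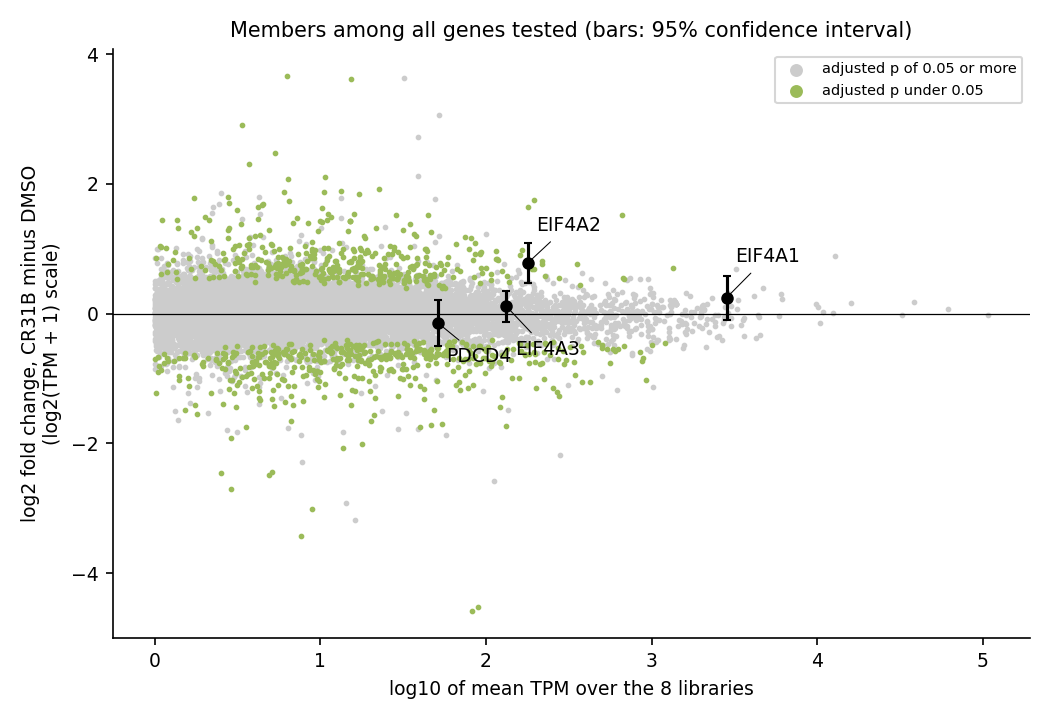
Log2 fold change of CR31B over DMSO (y axis) against the log10 mean TPM (x axis) for the 11778 genes tested, with the 4 members in black and their 95% confidence intervals. EIF4A2, at 0.78, is the member whose interval excludes 0, and EIF4A1, at 0.24, is the most abundant of the 4.

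The second comparison asked whether the members changed unequally. A ratio of 2 genes within a library does not depend on what other RNAs take of the fixed TPM sum, so the share of coding RNA in a library cancels. All 6 ratios among the 4 genes were compared by exact permutation over 70 assignments of libraries. The 3 ratios that contain EIF4A2 did not overlap between the groups, and the other 3 did. These 3 ratios share the EIF4A2 values described above, so they are not separate results. How often ratios of other gene pairs do not overlap was not computed.

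EIF4A1 exceeded EIF4A2 by 17.1, 20.1, 20.9 and 21.4 times in DMSO replicates 1 to 4, and by 13.5, 13.7, 13.3 and 14.1 times in CR31B replicates 1 to 4. The CR31B libraries were close together, with an SD of 0.035 on the log2 scale against 0.15 in DMSO. The log2 ratio changed by -0.54 (SE 0.076), and was lower with CR31B in all 4 replicate pairs. CR31B replicate 1 was thus not set apart in this ratio, although its levels of both genes were the highest.

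EIF4A2 stood at 1.10, 0.943, 1.04 and 1.01 times the level of EIF4A3 in DMSO replicates 1 to 4. In CR31B the values were 1.83, 1.45, 1.55 and 1.69 times, a change of 0.67 on the log2 scale (SE 0.086). EIF4A2 was thus level with the nuclear paralog in DMSO and above it in each CR31B library.

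Relative to its inhibitor, EIF4A2 was at 2.39, 2.69, 2.16 and 2.52 times PDCD4 in DMSO and at 5.61, 5.32, 3.55 and 4.35 times in CR31B, a log2 change of 0.93 (SE 0.17). For each of these 3 ratios the exact permutation p was 0.0286, the smallest possible, and 0.0571 after Benjamini-Hochberg adjustment over the 6 ratios, so none of the 3 passed 0.05 once adjusted. Without CR31B replicate 3, where a 4th ratio also did not overlap, the adjusted p by exact permutation was 0.0429.

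The other ratios overlapped. EIF4A1 to PDCD4 changed by 0.39 on the log2 scale (SE 0.19, exact permutation p of 0.114, 0.171 adjusted) and was higher in CR31B in 4 of 4 pairs. Without CR31B replicate 3 that difference was 0.53, with an adjusted exact permutation p of 0.0429. EIF4A3 to PDCD4 changed by 0.26 (SE 0.18) and EIF4A1 to EIF4A3 by 0.13 (SE 0.097), each with an exact permutation p of 0.229. When 1 library was left out, these differences ran from 0.14 to 0.37 and from 0.079 to 0.19.

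**Figure D4:**
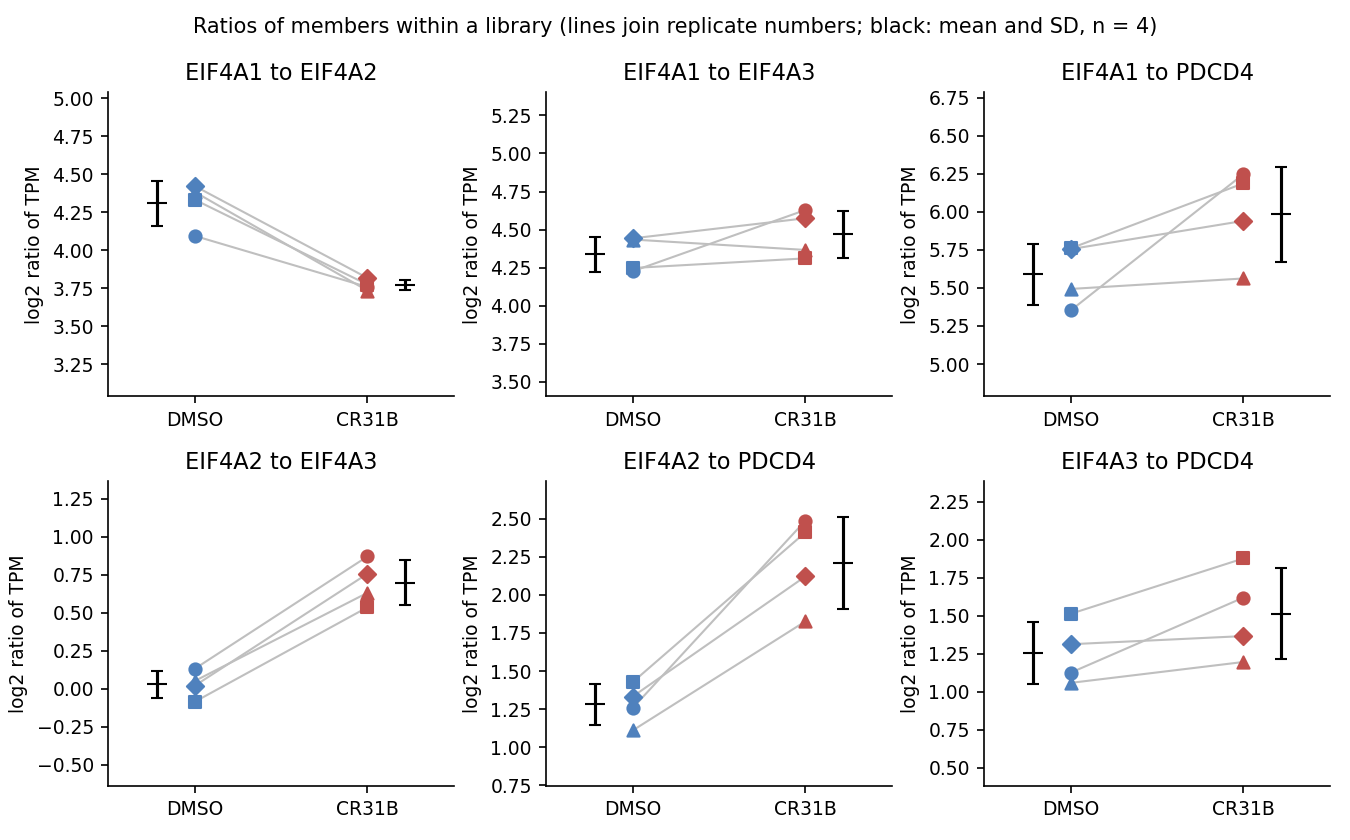
Log2 ratio of TPM of 2 members in the same library (y axis, 2 log2 units tall in every panel) in DMSO and CR31B, with lines between libraries of the same replicate number and black bars for the mean and SD (n = 4). EIF4A1 to EIF4A2 is lower with CR31B in all 4 pairs and lies in a narrow band, and EIF4A2 to EIF4A3 and EIF4A2 to PDCD4 are higher in all 4 pairs without overlap.

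On the relative scale of TPM, EIF4A1 still held most of the summed footprint level of the paralogs. The summed level of the 3 paralogs was 2842 ± 242 TPM in DMSO and 3448 ± 576 TPM in CR31B (SD, n = 4 each), and the groups overlapped. Of the difference between these means, 82.5% came from EIF4A1, 15.7% from EIF4A2 and 1.74% from EIF4A3. The difference itself was 606 TPM, and 328 TPM without CR31B replicate 1, for which the split was not computed. EIF4A1, with the largest part, was itself not called. The EIF4A2 share of the sum was 5.26%, 4.50%, 4.38% and 4.27% in DMSO replicates 1 to 4 and 6.63%, 6.50%, 6.68% and 6.37% in CR31B replicates 1 to 4. It did not overlap between the groups and was 1.94 percentage points higher in CR31B. The EIF4A1 share changed by -1.49 percentage points to 89.4% ± 0.460 (SD, n = 4), also without overlap. Both shares draw on the same EIF4A2 values as the ratios.

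Profiles most like those of the members were sought among 5462 other genes with a symbol and a mean of at least 10 TPM, by the root mean square distance of log2(TPM + 1) over the 8 libraries after centring on DMSO. Nearest to EIF4A2 were GARS1, which encodes glycyl-tRNA synthetase, at 0.085, BCLAF1, which encodes a nuclear RNA-binding factor, at 0.12, and MTHFD2, a mitochondrial enzyme of folate metabolism, at 0.14. The median distance to EIF4A2 was 0.58. GARS1 averaged 150 TPM with CR31B against 82.6 TPM with DMSO, a log2 change of 0.85. The nearest to EIF4A1 were POLR2G, EMG1 and TBRG4, at 0.062 to 0.072, and to EIF4A3 they were NUB1, SMC2 and GMPS, at 0.039 to 0.049. Those of PDCD4 were MDH2, SACM1L and ARHGEF39, at 0.090 to 0.093. These genes were picked for their values, and no test applies to them.

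Among the partners of eIF4A in cap-dependent initiation, the scaffold EIF4G1 rose while its relative EIF4G2 fell. Of 16 genes listed as eIF4F partners and cofactors, 15 were tested, of which 1 was called higher and 3 lower, where 3.45% and 4.02% of all genes tested were called. The median log2 change of the list was 0.12, against 0.029 over all genes tested, and ran from 0.061 without DMSO replicate 3 to 0.20 without CR31B replicate 3. EIF4G1, which bridges eIF4E and eIF4A, went from 76.1, 52.9, 63.7 and 61.4 TPM in DMSO replicates 1 to 4 to 136, 127, 108 and 113 TPM in CR31B. Its log2 change was 0.92 (SE 0.13, adjusted p in limma of 0.00380). EIF4G2, a related scaffold that lacks the eIF4E-binding site and still binds eIF4A, went from 427 ± 32.4 to 253 ± 20.9 TPM (SD, n = 4 each; log2 change -0.75, SE 0.11, adjusted p in limma of 0.00418). Both calls held in 18 of 18 alternatives.

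The other falls were in the interaction partners of poly(A)-binding protein. PAIP2, an inhibitor of that protein, went from 92.8 ± 1.74 to 57.0 ± 6.63 TPM (log2 change -0.70, adjusted p in limma of 0.00568), and PAIP1, a coactivator that binds eIF4A, from 31.4 ± 2.06 to 19.9 ± 2.28 TPM (-0.63, adjusted p in limma of 0.00998; SD, n = 4 each). For these 4 genes, named because they were called, no CR31B library lay within the DMSO range. Of all genes tested, 16.2% had groups without overlap. The helicase cofactors EIF4B and EIF4H and the cap-binding EIF4E are given for their roles and were named after their values were seen. EIF4B had a log2 change of 0.16 and EIF4H one of 0.12 (adjusted p in limma of 0.521 and 0.618), and without CR31B replicate 1 the values were 0.071 and 0.061. EIF4E had one of 0.29 without overlap of the groups (adjusted p in limma of 0.174), and was called after quantile normalization (adjusted p of 0.0253) and after rescaling over protein-coding genes (0.0349).

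MIF4G and MA3 domains are the folds through which eIF4G, PDCD4 and others hold an eIF4A-type helicase. Other than PDCD4, 11 genes were listed for having such a domain, whether or not their protein holds such a helicase. All 11 were tested, and 1 was called higher and 4 lower, against the same 3.45% and 4.02% of all genes. The median log2 change was 0.12, and 0.044 to 0.20 when 1 library was left out. Its sign turned, to -0.63, among the genes of the list with a mean of at least 10 TPM. Beside EIF4G1, EIF4G2 and PAIP1, which also stand in the previous list, the calls were CNOT1 and CTIF. CNOT1, the scaffold of the CCR4-NOT deadenylase, measured 31.9, 24.0, 19.3 and 18.8 TPM across CR31B replicates 1 to 4, against 49.8, 48.3, 37.5 and 34.9 TPM across the DMSO libraries (log2 change -0.85, SE 0.18, adjusted p in limma of 0.0217). CTIF, a scaffold for translation on the nuclear cap-binding complex, went from 8.35 ± 0.830 to 5.23 ± 0.764 TPM (SD, n = 4 each; log2 change -0.59, adjusted p in limma of 0.0265). Neither call held without some of the libraries. CNOT1 had adjusted p in limma from 0.0550 to 0.0650 without CR31B replicate 3, CR31B replicate 4, DMSO replicate 1 or DMSO replicate 2. CTIF had one from 0.0511 to 0.0817 without any single library other than CR31B replicate 2 and DMSO replicate 3.

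**Figure D5:**
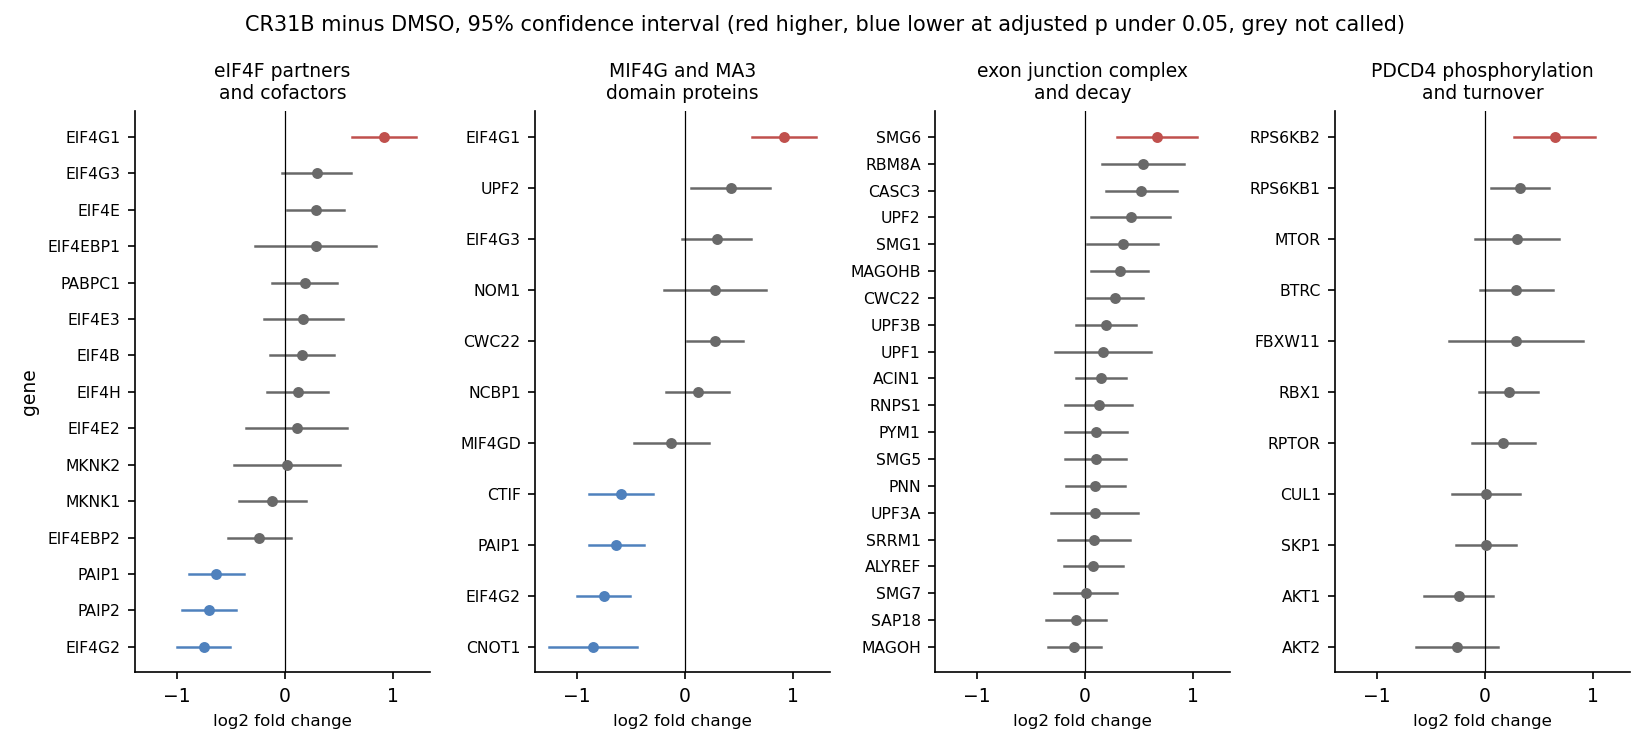
Log2 fold change of CR31B over DMSO (x axis) with its 95% confidence interval for the tested genes of 4 lists; red and blue mark genes higher and lower at a limma-adjusted p under 0.05, and grey the rest. EIF4G1, at 0.92, and CNOT1, at -0.85, mark the ends of the MIF4G and MA3 list, while 18 of the 20 genes of the exon junction list lie above 0.

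For EIF4A3, the relevant partners are those of the exon junction complex and of nonsense-mediated decay, which reads that complex. All 20 listed genes were tested, 1 was called higher and none lower, 7 had an unadjusted p under 0.05, and 18 had a value above 0 (median log2 change 0.14). Over all 11778 genes tested 7.46% were called, 2752 had an unadjusted p under 0.05 and 54.1% were above 0. In the fit with the replicate block, 2 genes of this list were called, where that fit called 12.3% of all genes tested. The main call was SMG6, the endonuclease of nonsense-mediated decay, with 9.79, 6.81, 9.07 and 9.07 TPM across CR31B replicates 1 to 4, against 6.55, 3.76, 4.81 and 5.40 TPM across the DMSO libraries (log2 change 0.67, SE 0.17, adjusted p in limma of 0.0371). Its adjusted p in limma was 0.0726 to 0.0972 without any single library other than CR31B replicate 2 and DMSO replicate 1.

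The core partners that hold EIF4A3 on RNA were named for their roles, after their values were seen. RBM8A, which forms a dimer with MAGOH, measured 901, 905, 1272 and 969 TPM across CR31B replicates 1 to 4, against 538, 731, 856 and 668 TPM across the DMSO libraries. The groups did not overlap, with a log2 change of 0.54 (SE 0.17, adjusted p in limma of 0.0852, and 0.0170 with the replicate block). CASC3, the cytoplasmic core subunit, had a log2 change of 0.52 without overlap (adjusted p in limma of 0.0588). It was called after quantile normalization, upper quartile scaling and rescaling over protein-coding genes (adjusted p of 0.0320, 0.0338 and 0.0122) and at a mean of at least 10 TPM (0.0428). The near-identical copies MAGOHB and MAGOH had log2 changes of 0.32 and -0.095 (adjusted p in limma of 0.137 and 0.660), and that of MAGOH ran from -0.17 without DMSO replicate 3 to -0.055 without DMSO replicate 4. MAGOHB was called after quantile normalization and after rescaling over protein-coding genes (0.0440 and 0.0455), and reads may have been split between these copies.

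PDCD4 protein is marked for destruction by S6 kinase and then bound by the ubiquitin ligase that contains beta-TrCP, encoded by BTRC and FBXW11. Of 11 genes of this route, all tested, 1 was called higher and none lower, and 9 were above 0, with a median log2 change of 0.22. Of all genes tested 3.45% were called higher and 54.1% were above 0. In limma 2 of the 11 had an unadjusted p under 0.05, as did 2752 of the 11778 genes tested. Below 0 were the kinase genes AKT1 and AKT2 (log2 changes of -0.24 and -0.26), named after their values were seen. RPS6KB2, one of the S6 kinases, measured 12.3, 11.8, 15.1 and 17.6 TPM across CR31B replicates 1 to 4, against 6.56, 9.40, 8.41 and 10.4 TPM across the DMSO libraries (log2 change 0.65, SE 0.17, adjusted p in limma of 0.0436). That call was lost without any single library other than CR31B replicate 2, at adjusted p of 0.0536 to 0.112 in limma, and after quantile normalization or upper quartile scaling (0.0568 and 0.0560). With no filter on low values, CNOT1, CTIF, SMG6 and RPS6KB2 had adjusted p in limma of 0.0857, 0.0617, 0.117 and 0.131. RPS6KB1, BTRC and FBXW11, named for their roles after their values were seen, had log2 changes of 0.33, 0.29 and 0.29 (adjusted p in limma of 0.141, 0.284 and 0.584). That of FBXW11 ran from 0.0080 without DMSO replicate 3 to 0.45 without DMSO replicate 1. These are footprint levels, and neither protein amount nor phosphorylation was measured.

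Other proteins reported to bind rocaglates are the DEAD-box helicase DDX3X and the prohibitins PHB1 and PHB2. None of the 3 was called in limma, where 7.46% of all genes tested were called. Of the 3, 1 had an unadjusted p under 0.05 in limma, as did 2752 of the 11778 genes tested. DDX3X measured 432, 346, 301 and 346 TPM across CR31B replicates 1 to 4, against 498, 409, 426 and 506 TPM across the DMSO libraries. It was lower in CR31B in 4 of 4 pairs while the groups overlapped, with a log2 change of -0.37 (SE 0.14, adjusted p in limma of 0.134). With the replicate block the adjusted p of DDX3X was 0.0466, and after rescaling over protein-coding genes it was 0.0430. PHB1 had a log2 change of -0.29 (95% confidence interval -0.65 to 0.07) and PHB2 one of 0.012 (-0.23 to 0.26), with adjusted p in limma of 0.310 and 0.964. Without DMSO replicate 3 the log2 change of PHB1 was -0.19. The sign for PHB2 turned under upper quartile scaling and without CR31B replicate 1, CR31B replicate 4, DMSO replicate 2 or DMSO replicate 4.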

How the data were processed

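Ribosome-protected fragments of 8 IMR32 libraries were analysed, 4 with CR31B and 4 with DMSO, grouped by their titles. The authors deposited TPM per gene. The submitters' processing notes name cutadapt 3.2, Bowtie2 2.3.4.1, STAR 2.7.1a, RSEM 1.2.28 and DESeq2 1.32.0 and the build GRCh38, without their roles; the annotation, strand setting and treatment of reads with several positions are not given in the sources used here. Because TPM has a fixed sum, a rise in 1 class of RNA lowers the rest.

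Symbols were found for 60481 of 60651 identifiers. The 11778 genes that averaged 1 TPM or more were fitted as log2(TPM + 1) with limma 3.58.1 in R 4.3.3 (eBayes with trend), with Benjamini-Hochberg adjustment over all of them. Fold changes on this scale understate the change of low genes. Ratios were tested by two-sided exact permutation. Python 3.11.15, NumPy 2.4.6, pandas 2.3.3, Biopython 1.88 and matplotlib 3.10.9 were used. Gene coordinates, coding sequences and gene types (58405 identifiers) came from GENCODE release 29 (GRCh38), with 1 principal transcript per gene. Protein sequences were not used here.

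The labels call the replicates biological but do not say what a number marks. Libraries with the same number deviated together after group means were removed for numbers 1 to 3 (correlations across genes of 0.333, 0.324 and 0.301). For number 4 the correlation was 0.105, below the 0.134 of CR31B replicate 4 with DMSO replicate 1, so number 4 was not set apart as a pair. Correlations of unlike numbers ran from -0.206 to 0.134. All 4 numbers were treated as pairs in an alternative fit. Alternatives were pseudocounts of 0.1 and 0.5, other filters, scalings and eBayes settings, the block, rows summed with their copies, and leaving out each library.

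The members and lists were chosen with earlier results of these data known, so no p adjusted over a gene list is given. The adjustment over the 6 ratios of members does not account for that choice. The genes named were the members, those called in each list (at most the 4 largest in each direction), DDX3X, PHB1 and PHB2. The 3 most alike profiles per member and every detected copy of a member were also named. Genes added for their role or direction are marked in the text.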

Additional observations from a re-analysis of the deposited data

Results flagged for a closer look

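EIF4E, the cap-binding subunit of eIF4F, was at 260.75 TPM in CR31B replicate 1, far from the 205 to 214 TPM of the other 3 CR31B libraries. The gap to the nearest library took 0.834 of the range of the group. This was the 1 case among 74 groups of 4 libraries examined. Chance alone gives about 1 in 20, or 3.7 such groups, which is more than were seen. The same library had the largest share of protein-coding RNA of the 8, at 61.3% of TPM, and the part of that share in the EIF4E value was not tested.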

How the results depend on the processing

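The 879 calls over all 11778 genes tested became 1453 with the replicate block. With no filter on low values, 442 of 28564 genes tested were called, a smaller share than in the main fit. Calls ran from 405 to 785 when 1 library was left out (515, 502, 515 and 405 without CR31B replicate 4, DMSO replicate 1, DMSO replicate 2 and DMSO replicate 4). For the members, the direction and the side of the threshold were the same in all 19 alternatives for each paralog and all 18 for PDCD4, and with the block no member's call changed. Of the exon junction list, 3 genes were called after quantile normalization and after rescaling over protein-coding genes, 2 with the block and after upper quartile scaling, 0 with no filter, and 0 to 1 when 1 library was left out. Over all 11778 genes tested, 1174 were called after quantile normalization and 1453 with the block, where the main fit called 879. Of the MIF4G and MA3 list, 3 genes were called with no filter and 3 to 5 when 1 library was left out. Of the PDCD4 turnover list, 0 were called with no filter, after quantile normalization and after upper quartile scaling, and 0 to 1 when 1 library was left out. Of the rocaglate-binding list, 1 was called with the block, where 12.3% of all genes tested were called, and 1 after rescaling over protein-coding genes. Across the 18 alternatives, scalings included, the number of genes called over all ran from 405 to 1453. When 1 library was left out, the log2 ratio difference ran from -0.61 to -0.50 for EIF4A1 to EIF4A2, from 0.31 to 0.53 for EIF4A1 to PDCD4, from 0.61 to 0.72 for EIF4A2 to EIF4A3 and from 0.84 to 1.06 for EIF4A2 to PDCD4. The PHB2 log2 fold change was -0.0185 under upper quartile scaling, and when 1 library was left out it ran from -0.034 to 0.053. With the replicate block, pairs by replicate number allow no exact p under 0.125, so that paired test cannot pass 0.05; the EIF4A1 to EIF4A2 ratio had 0.150 after adjustment. The number of reads behind each value is unknown, which leaves the spread between libraries as the measure of error.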

Other observations

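Since rocaglates act on purine-rich RNA, the 5′ UTRs of the members were described from the annotation, with 1 principal transcript per gene. EIF4A1 had a 5′ UTR of 16 nt and EIF4A2 one of 64 nt, against a median of 205 nt over 10125 tested protein-coding genes. Their purine content was 43.8% and 50.0%, and the longest purine run was 5 nt and 6 nt, against medians of 50.9% and 8 nt. EIF4A3 had 222 nt with 55.4% purines and a longest run of 4 nt. PDCD4 had 274 nt with 59.1% purines, above 86.4% of the genes, and a longest run of 9 nt. The transcript starts used in IMR32 cells were not measured, so these are features of the annotation only, and no relation to the footprint levels was tested.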
